A study of Homo sapiens with 9 samples.

Results

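Lupeol at 80 µmol/L was set against lupeol at 50 µmol/L, to find which genes separated the higher from the lower dose of this plant triterpene in THP-1 cells, a human line established from an acute monocytic leukaemia. The members were the 3 lupeol 80 and the 3 lupeol 50 libraries, chosen by their dose labels, 6 of the 9 libraries of the series. The series asks what lupeol does in acute myeloid leukaemia. All groups were suspension cultures of this 1 line, kept in RPMI-1640 with fetal bovine serum and antibiotics, with RNA taken after 48 h. The lupeol 80 group had 80 µmol/L, the lupeol 50 group had 50 µmol/L, and the 3 control libraries came from cells given the lupeol solvent. Levels are RNA-seq counts relative to library size (CPM), scaled between libraries by TMM, and differences are log2 fold changes of lupeol 80 over lupeol 50.

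Lupeol is a pentacyclic triterpene that plants make from oxidosqualene, also the precursor of their sterols. Several gene programmes described here are fast-reacting. Immediate-early genes such as the NR4A nuclear receptors, the FOS family and the phosphatase gene DUSP1 are induced within minutes of a stimulus, and their mRNAs are short-lived. The unfolded protein response raises chaperones of the endoplasmic reticulum (ER) through the factors ATF6, XBP1 and ATF4 when folding capacity is short, and interferon-stimulated genes are the antiviral programme that interferons switch on.

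The lupeol 80 libraries held 28188739 to 38430299 counts and the lupeol 50 libraries 27259432 to 29418948. Lupeol 80 replicate 1 was the deepest. On the first principal component of the 6 lupeol libraries, which held 33.1% of the variance of the 1000 most variable genes, the lupeol 80 libraries stood at 9.56 to 22.3 and the lupeol 50 libraries at -27.45 to -4.69, without overlap. Lupeol 80 replicate 2 lay nearer in counts to every lupeol 50 library than to lupeol 80 replicates 1 and 3. Its chi-square per degree of freedom was 15.4, 23.9 and 16.8 against lupeol 50 replicates 1, 2 and 3. Against lupeol 80 replicates 1 and 3 it was 43.2 and 26.4, and against control libraries B, 1 and A it was 17.65, 25.8 and 31.4. Lupeol 50 replicate 1 in turn lay nearest to control B (7.73) and farther from lupeol 50 replicates 2 (29.97) and 3 (18.0), which were close to each other (6.12). Of the monocytic markers, CD33, SPI1, CSF1R, FCGR1A and ITGAM stood above 50 CPM in each lupeol library, while CD68 stayed under 0.5 CPM and MPO under 3 CPM, and CD14 stood at 8.38 to 11.5 CPM. The lysozyme gene LYZ had 140.0, 90.1 and 79.4 CPM at lupeol 80, against 86.4, 46.9 and 52.0 CPM at lupeol 50, with overlap (edgeR adjusted p = 0.467). Markers of erythroid, fibroblast and epithelial cells summed to at most 3.55 CPM in any library (sums without TMM scaling), and T and NK cell markers to 20.6 to 24.7 CPM in the lupeol libraries. The summed B cell markers stood at 20.9 to 37.8 CPM at lupeol 80 and at 42 to 61.2 CPM at lupeol 50, where 3 of the 8 markers were at 0 in all libraries and PAX5 gave most of the sum. PAX5, a transcription factor, had 31.1, 34.0 and 17.6 CPM at lupeol 80, against 38.3, 59.6 and 57.5 CPM at lupeol 50, and was not called (edgeR adjusted p = 0.115). The part of B cell markers in the results was not tested.

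Few single genes separated the doses beyond the spread between libraries in the main edgeR fit, and the number depended on the method. Of 17568 genes tested, 6 rose and 2 fell at lupeol 80 against lupeol 50 (edgeR, adjusted p under 0.05), which is 0.0342% and 0.0114% of the genes and 0.0455% in all. An unadjusted p under 0.05 was reached by 2707 genes (15.4%), 1270 higher (7.23%) and 1437 lower (8.18%). At an adjusted p under 0.10 stood 211 genes (1.2%), 106 higher and 105 lower. The 3 lupeol 80 libraries all lay above the 3 lupeol 50 libraries for 1655 genes (9.42%) and all below for 1691 (9.63%), together 19% of the genes tested. Without scaling factors this split was 2104 above and 1249 below, and the calls were 12 higher and 2 lower. The calls were 5 higher and 2 lower with limma-voom, 186 and 254 with DESeq2, and 267 and 392 with no expression filter.

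**Figure D1:**
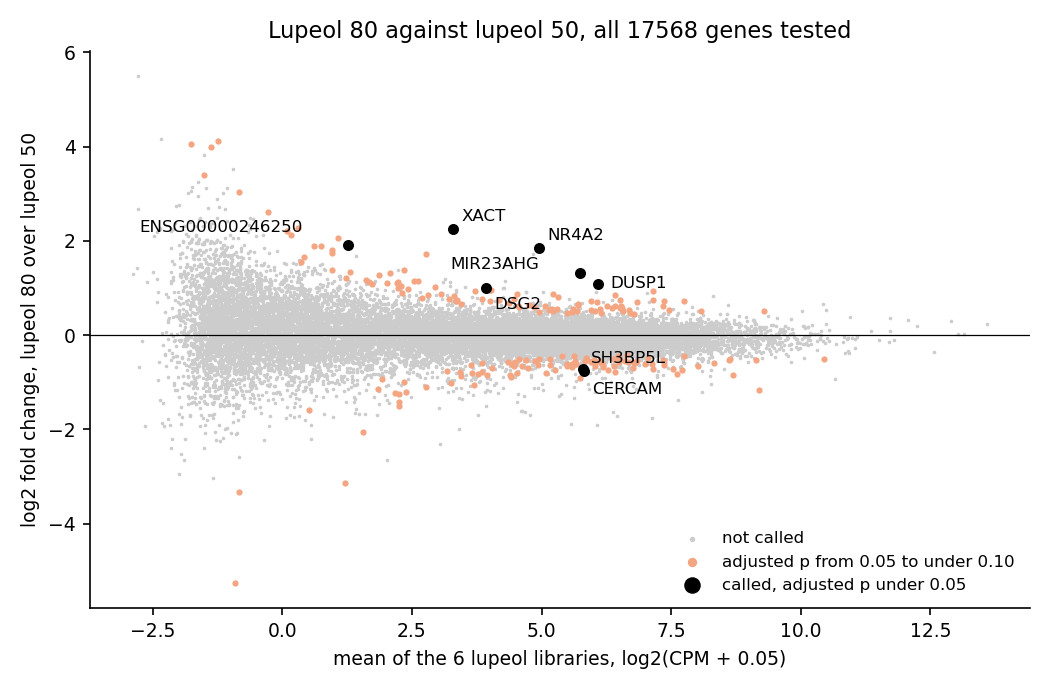
Each point is 1 of the 17568 genes tested, by its mean level over the 6 lupeol libraries (log2 axis) and its log2 fold change of lupeol 80 over lupeol 50. The 8 called genes are labelled, 6 above 0 and 2 below, and genes with an adjusted p from 0.05 to under 0.10 lie on both sides.

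The 8 calls depended on single libraries, and XACT alone was called in each of 19 alternatives. Leaving out replicate 2 or replicate 3 of lupeol 50 left XACT as the only call. Leaving out lupeol 80 replicate 3 gave 4 calls, of which XACT and the antisense gene ENSG00000246250 were among the 8. Leaving out lupeol 80 replicate 1 gave 9, sharing XACT, DUSP1, SH3BP5L and MIR23AHG with the 8. Without control library 1 there were 2 calls, without A there were 3 and without B there were 22. More genes were called when lupeol 80 replicate 2 was left out (189) or lupeol 50 replicate 1 was (156), and all 8 were among them in both cases.

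XACT, a long non-coding RNA of the X chromosome known to coat active X chromosomes in human pluripotent cells, showed the largest separation among the called genes. It had 17.95, 16.4 and 14.2 CPM at lupeol 80, against 2.30, 4.95 and 2.97 CPM at lupeol 50. All 3 lupeol 80 libraries stood far above all 3 lupeol 50 libraries, and the control libraries, at 7.07, 6.21 and 4.41 CPM, lay between them in their mean. XACT rose by a log2 fold change of 2.25 ± 0.26 (SE; edgeR adjusted p = 0.00137). In GENCODE 29 on GRCh38 it lies on the minus strand at chrX:113616300-114059289. In bulk RNA, fewer cells with a transcript and less of it per cell cannot be told apart, here and in the results that follow.

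NR4A2, an orphan nuclear receptor and immediate-early transcription factor, had 42.5, 59.0 and 43.9 CPM at lupeol 80, against 14.3, 14.9 and 11.4 CPM at lupeol 50. The groups did not overlap, and the lowest lupeol 80 library had more than the highest lupeol 50 library by a wide margin. Its log2 fold change was 1.84 ± 0.25 (SE; edgeR adjusted p = 0.0359). The control libraries had 27.6, 23.0 and 12.4 CPM, so that the last of them reached down to the lupeol 50 level. NR4A2 lies on the minus strand at chr2:156324432-156342348.

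DUSP1, a dual-specificity phosphatase that switches off p38, JNK and ERK, had 73.4, 111.7 and 90.9 CPM at lupeol 80, against 38.02, 50.65 and 41.1 CPM at lupeol 50. The groups did not overlap, and DUSP1 rose by a log2 fold change of 1.09 ± 0.16 (SE; edgeR adjusted p = 0.0299). The controls, at 58.3, 62.6 and 45.4 CPM, overlapped the lupeol 50 range and stayed below every lupeol 80 library.

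DSG2, a desmosomal cadherin of cell junctions, had 21.4, 16.9 and 22.3 CPM at lupeol 80, against 10.9, 9.93 and 9.49 CPM at lupeol 50. It rose by a log2 fold change of 1.00 ± 0.16 (SE; edgeR adjusted p = 0.0359), with no overlap of the groups. The controls, with a mean of 11.5 ± 1.27 CPM (SD, n = 3), lay near the lupeol 50 libraries.

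MIR23AHG, the host transcript of the clustered microRNAs miR-23a, miR-27a and miR-24-2, had 51.9, 78.8 and 98.0 CPM at lupeol 80, against 34.3, 24.2 and 33.2 CPM at lupeol 50. The lupeol 80 libraries lay above those of lupeol 50 but spread widely among themselves, and the gene rose by a log2 fold change of 1.32 ± 0.20 (SE; edgeR adjusted p = 0.0359). GENCODE 29 places it on the minus strand at chr19:13823880-13842928 and annotates it as antisense, overlapping ZSWIM4 on the plus strand. ZSWIM4 pointed the other way, with a mean of 2.54 ± 1.15 CPM at lupeol 80 and 6.86 ± 1.21 CPM at lupeol 50 (SD, n = 3 each), a log2 fold change of -1.42 ± 0.33 (SE) that was not called (edgeR adjusted p = 0.0813). The sources used here give no strand setting for the counting, so reads of the 2 genes cannot be told apart where they overlap. The mature microRNAs were not analysed here. Their sequences are given 5′ to 3′ from RefSeq on GRCh38.p14 with the seed (bases 2 to 8) in capitals:

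hsa-miR-23a-3p: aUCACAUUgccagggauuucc
hsa-miR-27a-3p: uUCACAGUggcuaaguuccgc
hsa-miR-24-3p: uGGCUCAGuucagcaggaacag

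They lie on the minus strand of chromosome 19, at chr19:13836595-13836615, chr19:13836447-13836467 and chr19:13836289-13836310 in that order. The seeds UCACAUU and UCACAGU of miR-23a-3p and miR-27a-3p begin with the same bases, and miR-24-3p has the different seed GGCUCAG.

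The remaining gene that rose, ENSG00000246250, has no symbol in the name table, is annotated as antisense on the minus strand at chr11:43829709-43880726 and overlaps HSD17B12 on the plus strand. It was low, with 5.07, 3.66 and 2.48 CPM at lupeol 80 and 0.962, 1.00 and 1.00 CPM at lupeol 50, a log2 fold change of 1.92 ± 0.33 (SE; edgeR adjusted p = 0.0359). The lupeol 80 libraries were spread over a wide range, all above lupeol 50, whose libraries were nearly equal. HSD17B12 itself stood at a log2 fold change of 0.21 and was not called (edgeR adjusted p = 0.474).

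Both genes that fell encode proteins, and each separated the groups without overlap. SH3BP5L, a relative of the RAB11 exchange factor SH3BP5, had 39.0, 43.3 and 43.4 CPM at lupeol 80, against 65.8, 68.7 and 73.6 CPM at lupeol 50. It fell by 0.73 ± 0.11 on the log2 scale (SE; edgeR adjusted p = 0.0299), and its control libraries, at 60.8 to 68.9 CPM, lay with lupeol 50. CERCAM, a collagen galactosyltransferase relative, had 35.2, 45.8 and 45.2 CPM at lupeol 80, against 66.0, 70.6 and 76.6 CPM at lupeol 50. It fell by 0.76 ± 0.13 on the log2 scale (SE; edgeR adjusted p = 0.0359), and its controls, at 59.6 to 70.5 CPM, overlapped the lupeol 50 range.

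**Figure D2:**
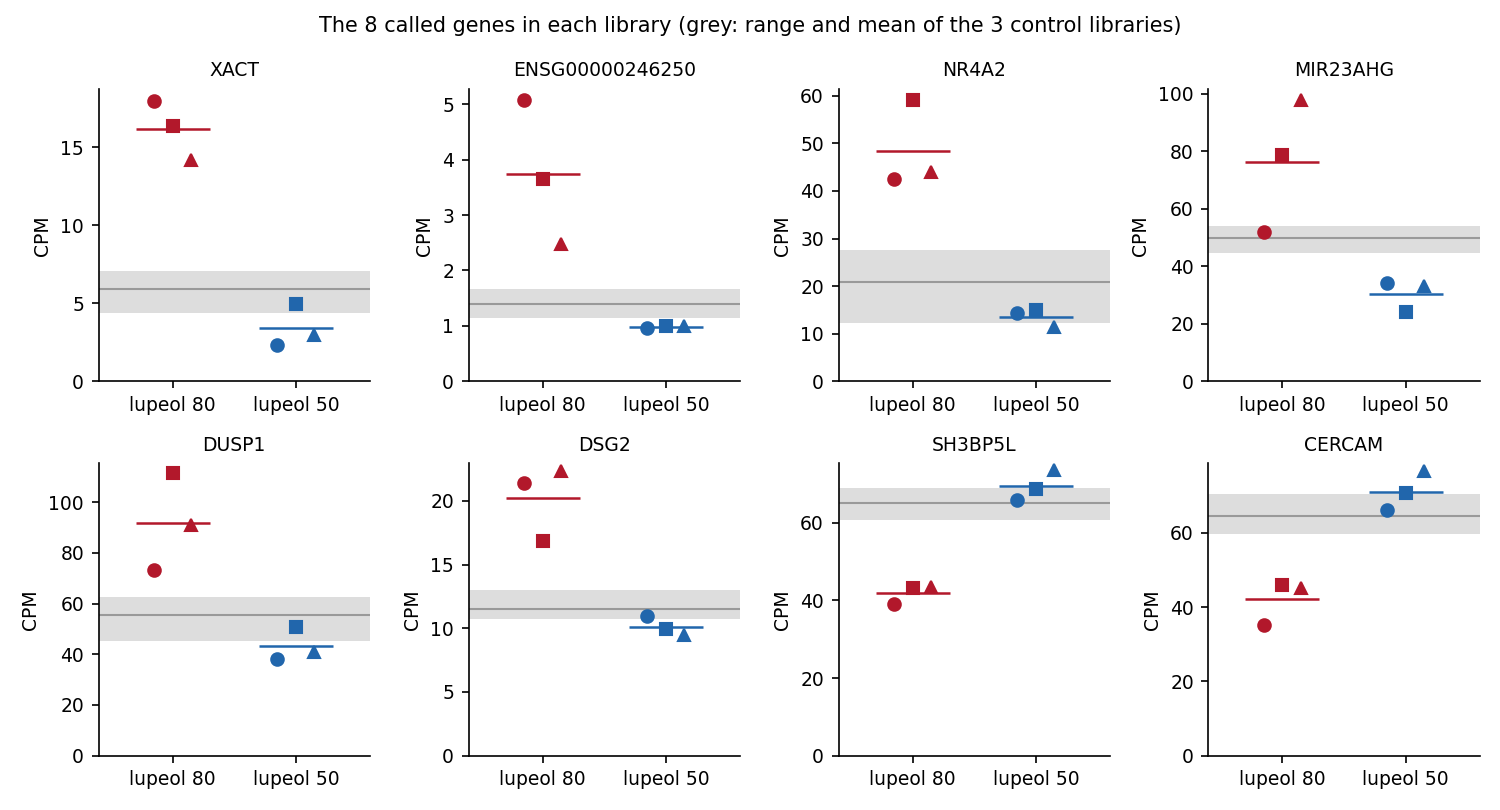
CPM of the 8 called genes in each lupeol 80 (red) and lupeol 50 (blue) library, with a line at each group's mean and marker shapes for replicates 1 (circle), 2 (square) and 3 (triangle). The grey band is the range of the 3 control libraries. The lupeol groups do not overlap in any panel, and the control mean lies between the 2 dose means in all 8.

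The control mean lay between the means of the 2 doses for all 8 called genes. It did so for 88 of the 106 genes that were higher at an adjusted p under 0.10 (83%) and for 83 of the 105 that were lower (79%). At an unadjusted p under 0.05 the shares were 71% of those higher and 58.4% of those lower, and over all genes tested 32.6% and 29.5%. Genes chosen for a wide gap between the doses hold the control mean inside it more often by construction, so these shares are given as a description only. The doses' distances from control were unequal: DSG2 stood at 0.81 (lupeol 80) and -0.19 (lupeol 50) on the log2 scale, while GPA33, not called here, stood at 0.44 (lupeol 80) and -1.27 (lupeol 50). These values share the control libraries and were not tested against each other.

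The genes named next in each direction, by smallest p, missed the threshold with adjusted p between 0.056 and 0.0604 (edgeR). They were taken only from genes with a symbol, a mean of 5 CPM or more and no overlap of the doses. SOCS3, a feedback inhibitor of JAK-STAT signalling, had 18.9, 25.1 and 20.1 CPM at lupeol 80, against 13.99, 8.81 and 10.3 CPM at lupeol 50, a log2 fold change of 0.95 ± 0.18 (SE). TSC22D3, the glucocorticoid-induced leucine zipper, had 49.5, 51.2 and 52.1 CPM at lupeol 80, against 30.6, 24.3 and 32.5 CPM at lupeol 50, at 0.81 ± 0.16. GPA33, a cell-surface immunoglobulin-family protein, stood at 1.71 ± 0.31. For SOCS3 and TSC22D3 the control means, 17.7 and 47.4 CPM, lay nearer to lupeol 80 than to lupeol 50.

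Among genes lower at lupeol 80, NFE2L1, a transcription factor that raises proteasome genes, had 125.0, 146.1 and 115.6 CPM at lupeol 80, against 182.6, 208.6 and 208.4 CPM at lupeol 50, a log2 fold change of -0.63 ± 0.11 (SE). SLC39A7, a zinc transporter of the ER and Golgi, stood at -0.74 ± 0.15, and RRBP1, the ribosome-binding protein of the rough ER, at -0.71 ± 0.14. ATP8B2, a phospholipid flippase, stood at -0.68 ± 0.13, GPR132, a G protein-coupled receptor of macrophages, at -0.80 ± 0.16, and GADD45B, a stress-induced regulator of MAP kinase signalling, at -0.70 ± 0.14. None of these 6 was called.

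Immediate-early genes stood on both sides of 0, and most members without overlap were higher at lupeol 80. Of 30 members tested, NR4A2 and DUSP1 rose and none fell, where 0.0342% and 0.0114% of all genes did. Of the 30, 17 stood above 0 and 13 below, and the list's median log2 fold change was 0.080 against -0.000477 over all genes. The lupeol 80 libraries lay above lupeol 50 for 8 members and below for 1, where 9.42% and 9.63% of all genes do so. With the GC and length trend removed, 12 members lay above and 1 below, against 9.51% and 9.31% of all genes, and the median was 0.19. Further members are named after their values were seen. FOSB, an AP-1 subunit, had 61.8, 89.0 and 70.6 CPM at lupeol 80, against 37.6, 26.5 and 25.7 CPM at lupeol 50, a log2 fold change of 1.30 ± 0.24 (SE) that was not called (edgeR adjusted p = 0.0654). FOS itself had 611.7, 755.7 and 844.7 CPM at lupeol 80 and 565.3, 491.7 and 486.8 CPM at lupeol 50, and KLF6, a Krüppel-like factor, had 153.9, 259.8 and 199.3 CPM and 117.0, 133.0 and 121.8 CPM at the same doses. The doses did not overlap in either gene, and neither was called.

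FOSB lay lower at lupeol 50 than in control, where it had 84.0, 72.2 and 45.0 CPM, while its lupeol 80 libraries overlapped the controls. CCN2, a matricellular growth factor, and EGR3, a zinc-finger factor, stood at 1.15 ± 0.23 and 1.71 ± 0.56 (log2 fold change ± SE), neither called. At the other end NR4A3, another NR4A receptor, stood at -1.51 ± 0.64, on levels of 0.318 to 2.37 CPM. EGR1 stood at 0.65 ± 0.21 with overlapping groups. The list's median was 0.26 without lupeol 80 replicate 1 and -0.045 without replicate 2 of that dose.

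The window of 250 bases before the DUSP1 start is shown because DUSP1 was called and its promoter held the full cAMP response element TGACGTCA (both strands searched; it is its own reverse complement), in capitals, from RefSeq on GRCh38.p14 at chr5:172771196-172771445, minus strand:

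DUSP1: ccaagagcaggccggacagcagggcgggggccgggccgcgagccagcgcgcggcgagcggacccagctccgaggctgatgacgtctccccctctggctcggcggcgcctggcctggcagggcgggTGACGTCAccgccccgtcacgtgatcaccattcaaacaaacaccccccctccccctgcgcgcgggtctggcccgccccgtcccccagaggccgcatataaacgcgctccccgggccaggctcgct

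The element begins 125 bases before the annotated start. It was found in the window of 555 of 27305 genes with a promoter (2.03%), and in 2 of the 21 immediate-early genes with one, DUSP1 and JUND. Of the 8 called genes, 6 had a window, and DUSP1 alone held the element. A match is a description of letters, not of a bound site.

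ER chaperone and unfolded protein response genes stood lower at lupeol 80 in nearly every member, without a single call. Of 22 members tested, 21 stood below 0, with a median log2 fold change of -0.49 against -0.000477 over all genes. In 11 members (none higher) the 3 lupeol 80 libraries all lay below the 3 lupeol 50 libraries, where 9.63% of all genes do so. The exception was ATF6, the membrane-bound sensor itself, at 0.038 ± 0.12 (log2 fold change ± SE). The list was chosen with earlier results of these data known.

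HYOU1, an Hsp110-family chaperone of the ER, had 272.1, 453.9 and 365.8 CPM at lupeol 80, against 613.6, 963.1 and 863.9 CPM at lupeol 50, a log2 fold change of -1.16 ± 0.22 (SE; edgeR adjusted p = 0.0773). PDIA4, a disulfide isomerase, had 240.3, 342.4 and 307.8 CPM at lupeol 80, against 404.2, 640.1 and 559.8 CPM at lupeol 50, at -0.85 ± 0.18 (edgeR adjusted p = 0.0741). CALR, the lectin chaperone calreticulin, had 1194, 1190 and 1088 CPM at lupeol 80, against 1505, 1755 and 1671 CPM at lupeol 50, at -0.51 ± 0.11 (edgeR adjusted p = 0.0654). None was called, and in all 3 genes every lupeol 80 library lay below every lupeol 50 library.

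HSPA5, the Hsp70 chaperone BiP, had 833.5, 1134 and 1366 CPM at lupeol 80, against 1239, 2831 and 2241 CPM at lupeol 50, a log2 fold change of -0.92 ± 0.32 (SE; edgeR adjusted p = 0.254). Lupeol 50 replicate 1 lay inside the lupeol 80 range and next to control B, at 1247 CPM, while lupeol 50 replicates 2 and 3 stood above all other libraries. Calnexin (CANX) stood at -0.37 ± 0.13, the disulfide isomerase P4HB at -0.34 ± 0.11 and the chaperone HSP90B1 (GRP94) at -0.31 ± 0.14. The secreted ER protein MANF stood at -0.92 ± 0.32 and XBP1 at -0.51 ± 0.25.

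In its place relative to control the list differed by gene. Its median log2 fold change against control was -0.030 at lupeol 80 and 0.45 at lupeol 50. CALR averaged 1157 ± 60.3 CPM at lupeol 80 and 1644 ± 127.1 CPM at lupeol 50, against 1642 ± 77.3 CPM in control (SD, n = 3 each). HSPA5 averaged 1111 ± 267.1 CPM at lupeol 80 and 2103 ± 804.9 CPM at lupeol 50, against 1020 ± 203.3 CPM in control (SD, n = 3 each). CALR at lupeol 50 thus stood at the control level and HSPA5 above it. The dose difference of the list, over 19 alternatives, ran from -0.60 without lupeol 50 replicate 1 to -0.36 without lupeol 50 replicate 2.

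The ER stress response element (CCAAT, then 9 bases of any kind, then CCACG) was searched on both strands in the same windows, because ATF6 is known to act through it on many ER chaperone genes. It was present in 25 of 27305 genes (0.0916%) and in 7 of the 21 list members with a window. The HSPA5 window, at chr9:125241344-125241593 on the minus strand of GRCh38.p14, has the element in capitals, beginning 66 bases before the start:

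HSPA5: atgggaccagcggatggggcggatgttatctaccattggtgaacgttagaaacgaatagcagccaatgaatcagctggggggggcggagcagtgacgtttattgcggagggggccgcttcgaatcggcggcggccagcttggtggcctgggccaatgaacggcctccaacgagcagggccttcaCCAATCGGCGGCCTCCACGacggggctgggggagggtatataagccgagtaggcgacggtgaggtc

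The elements found in the list follow, to show how their spacers differ, read from CCAAT to CCACG with both ends in capitals:

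CALR: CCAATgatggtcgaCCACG
CANX: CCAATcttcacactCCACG
CRELD2: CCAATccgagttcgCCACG
HSP90B1 (start-distal): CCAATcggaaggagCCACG
HSP90B1 (start-proximal): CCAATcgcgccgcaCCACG
HSPA5: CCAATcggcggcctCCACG
PDIA6: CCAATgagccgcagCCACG
XBP1: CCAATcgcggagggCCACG

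They lie at chr19:12938384-12938402 (minus strand) for CALR, chr5:179698778-179698796 (plus) for CANX and chr22:49918554-49918572 (minus) for CRELD2. HSP90B1 held 2, at chr12:103930216-103930234 (plus) and chr12:103930321-103930339 (minus). Those of HSPA5, PDIA6 and XBP1 are on the minus strand at chr9:125241391-125241409, chr2:10812853-10812871 and chr22:28800603-28800621. The elements of CALR and CRELD2 and the start-proximal one of HSP90B1 are on the strand opposite to the gene.

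The 7 members with the element had a median log2 fold change of -0.51 (range -0.92 to -0.31), and the 14 with a window and no match had -0.52 (range -1.16 to 0.038). Of the 7, all were below 0 and 4 had every lupeol 80 library below every lupeol 50 library, and of the 14, 13 were below 0 and 6 did so, against 9.63% of all genes. HYOU1 and PDIA4, with low values at lupeol 80, had no match to these letters in this window.

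**Figure D3:**
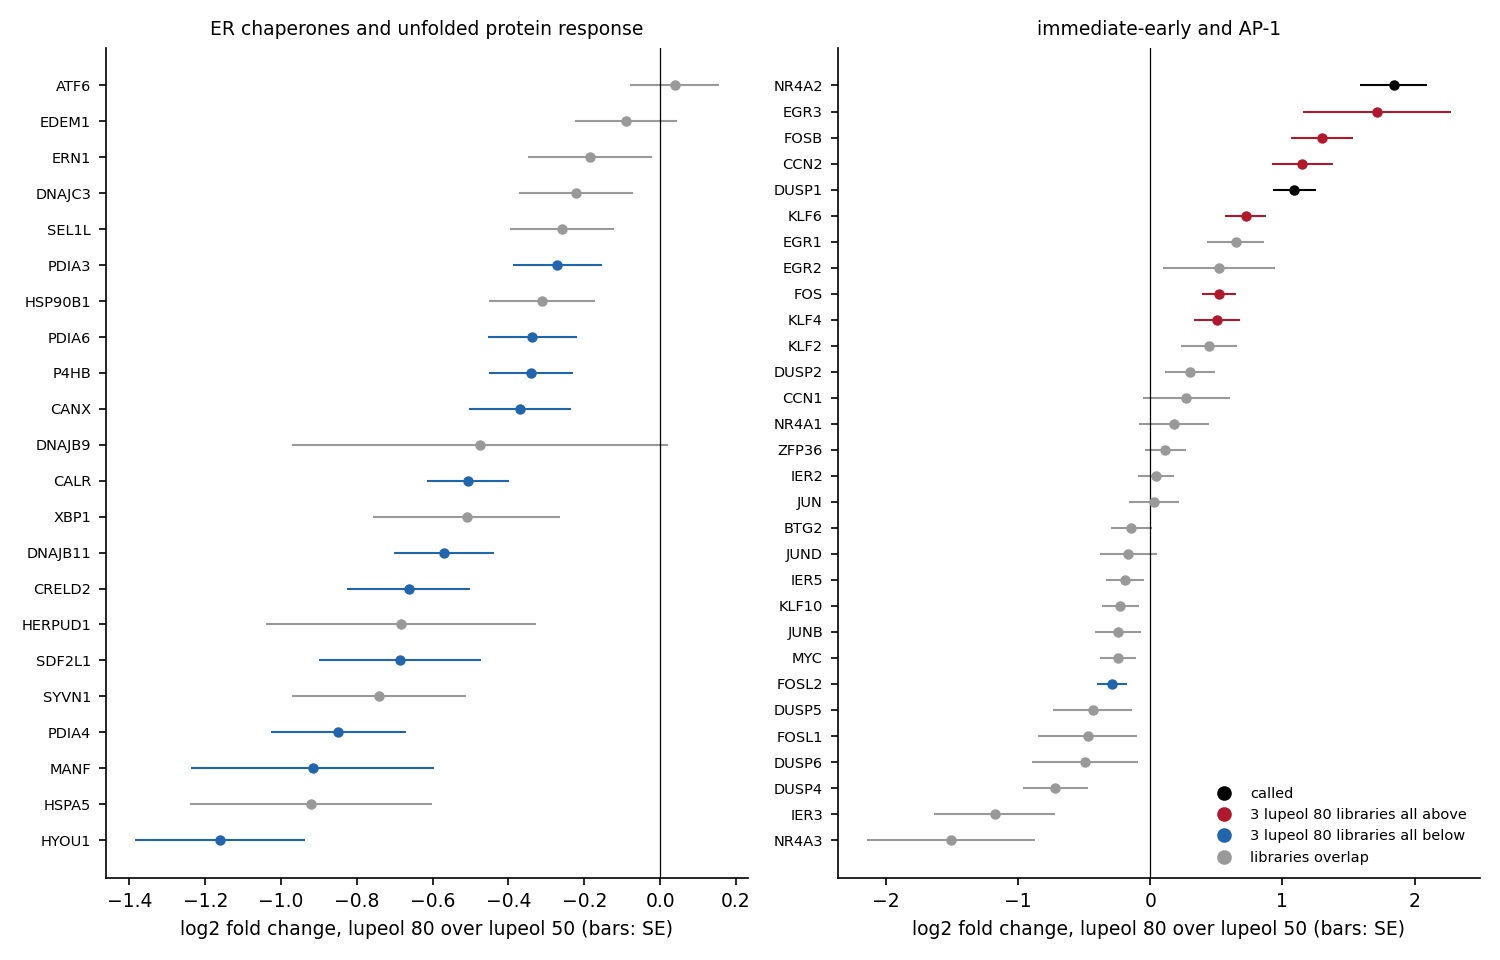
Log2 fold change of lupeol 80 over lupeol 50 with its SE for 22 ER chaperone and unfolded protein response genes (left) and 30 immediate-early genes (right). Black marks called genes, red and blue mark members whose 3 lupeol 80 libraries all lie above or all below the lupeol 50 libraries, and grey marks overlap. All ER members but ATF6 lie left of 0, and the immediate-early members lie on both sides.

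ATF4 targets and amino acid response genes had a median log2 fold change of -0.27, with 23 of 27 tested below 0, none called and 4 non-overlapping below, where 9.63% of all genes are. ATF4 itself had 217.8, 357.9 and 372.3 CPM at lupeol 80, against 332.9, 426.9 and 386.6 CPM at lupeol 50. The groups overlapped, and lupeol 80 replicate 1 was the low library. SESN2, a stress-induced sestrin, stood at -0.76 ± 0.20 without overlap, and CHAC1, a glutathione-degrading enzyme, at -1.45 ± 0.39 with overlap (log2 fold change ± SE), neither called. Without lupeol 80 replicate 1 the list's median was -0.15.

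Interferon-stimulated genes had the lowest median of the lists, -0.87, with 31 of 32 tested below 0, yet none was called and only USP18 and BST2 were without overlap between the doses, both below, where 9.63% of all genes are. IFIT1, an antiviral RNA-binding protein, had 38.9, 42.8 and 3.75 CPM at lupeol 80, against 29.2, 171.3 and 119.0 CPM at lupeol 50. Lupeol 80 replicate 3 was far below every other library, and lupeol 50 replicate 1 lay inside the lupeol 80 range. USP18, the ISG15 protease, had 29.2, 29.6 and 11 CPM at lupeol 80 and 30.4, 80.0 and 61.8 CPM at lupeol 50, a log2 fold change of -1.30 ± 0.50 (SE; edgeR adjusted p = 0.306). The list's median was -0.52 without lupeol 80 replicate 3.

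Antigen processing genes of the MHC class I pathway had a median log2 fold change of -0.12, with 12 of 17 below 0, 4 non-overlapping below and 1 above, against 9.63% and 9.42% of all genes. TAP1, the peptide transporter subunit, had 140.4, 183.7 and 98.9 CPM at lupeol 80, against 214.8, 274.8 and 259.2 CPM at lupeol 50, at -0.82 ± 0.18 (SE; edgeR adjusted p = 0.0773), not called. Its groups were separate, and its controls, at 235.3 to 262.9 CPM, lay within the lupeol 50 range. PSMB9, an immunoproteasome subunit, stood at -0.44 ± 0.12. The list's median was -0.048 without lupeol 50 replicate 1 and -0.081 without lupeol 80 replicate 3.

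All 9 tested MHC class II genes stood above 0, with a median of 0.51. Only HLA-DQB1, 1 of the 9, was non-overlapping above, where 9.42% of all genes are. HLA-DQB1 had 13.6, 9.24 and 13.1 CPM at lupeol 80, against 8.87, 7.44 and 8.56 CPM at lupeol 50, a log2 fold change of 0.53 ± 0.18 (SE; edgeR adjusted p = 0.191). CD74, the invariant chain, stood at 0.10 ± 0.15. Without lupeol 80 replicate 1 the list's median was 0.098, without lupeol 50 replicate 2 it was 0.28 and without lupeol 50 replicate 3 it was 0.33. Class II genes are near-identical copies in part, and the sources used here give no rule for counting reads with several alignments.

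NF-kB subunits and inflammatory targets had a median log2 fold change of -0.30, with 18 of 25 below 0, none called, 6 non-overlapping below and 1 above, against 9.63% and 9.42% of all genes. TNF, a cytokine, had 87.9, 151.9 and 106.5 CPM at lupeol 80, against 200.4, 232.6 and 192.7 CPM at lupeol 50. The groups stood apart, and TNF's log2 fold change was -0.85 ± 0.37 (SE; edgeR adjusted p = 0.335). ICAM1, an adhesion molecule, had 32.3, 49.1 and 13.0 CPM at lupeol 80, against 64.7, 73.6 and 65.0 CPM at lupeol 50, also without overlap. IL1B, interleukin-1β, had 13.7, 76.7 and 32.5 CPM at lupeol 80, against 60.8, 173.2 and 144.5 CPM at lupeol 50, with lupeol 80 replicate 2 above lupeol 50 replicate 1.

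Members of the same list also stood the other way. PTGS2, cyclooxygenase-2, had 10.1, 13.4 and 11.4 CPM at lupeol 80, against 6.91, 8.29 and 7.38 CPM at lupeol 50, a log2 fold change of 0.63 ± 0.18 (SE; edgeR adjusted p = 0.125). CXCL8, the neutrophil chemokine interleukin-8, had 280.4, 554.7 and 385.8 CPM at lupeol 80, against 161.8, 321.0 and 205.0 CPM at lupeol 50, with overlap. Both stood above their control libraries at either dose. The list's median was -0.17 without lupeol 80 replicate 3 and -0.55 without lupeol 80 replicate 2.

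NRF2 target genes, the oxidative stress programme, had a median of 0.20 with 18 of 22 above 0, none called, 8 non-overlapping above and 1 below, against 9.42% and 9.63% of all genes. NQO1, a quinone reductase, had 114.5, 94.6 and 133.6 CPM at lupeol 80, against 63.4, 67.7 and 72.3 CPM at lupeol 50. All lupeol 80 libraries were higher, and the log2 fold change was 0.75 ± 0.15 (SE; edgeR adjusted p = 0.0604). FTL, ferritin light chain, stood at 0.30 ± 0.12. HMOX1, haem oxygenase, stood the other way at -1.21 ± 0.64, with 23.0, 59.75 and 36.1 CPM at lupeol 80, against 26.8, 145.5 and 101.6 CPM at lupeol 50, where replicate 1 overlapped the lupeol 80 range. Without lupeol 50 replicate 1 the list's median was 0.13.

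Metallothioneins and the zinc exporter gene SLC30A1 all stood below 0 (7 of 7 tested, median -0.39, none called). MT2A had 82.5, 151.7 and 105.5 CPM at lupeol 80, against 165.4, 235.1 and 171.9 CPM at lupeol 50, a log2 fold change of -0.75 ± 0.21 (SE; edgeR adjusted p = 0.141). It was the 1 member of 7 without overlap, below, where 9.63% of all genes are. The median was -0.24 without lupeol 80 replicate 1.

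No list of cell growth or cell death genes held a called gene. DNA replication genes had a median log2 fold change of 0.12 with 25 of 31 above 0. Of the 31, 4 were non-overlapping above, where 9.42% of all genes are, with PCNA standing at 0.28 ± 0.12 and GINS3, a subunit of the replicative helicase complex, at 0.34 ± 0.14 (SE). That median was 0.052 without lupeol 50 replicate 2 and 0.21 without its replicate 1. Mitotic genes had a median of -0.019, with 6 of 30 non-overlapping below, where 9.63% of all genes are, among them CDC20, the activator of the anaphase-promoting complex, at -0.39 ± 0.13. Their median ran from -0.10 to 0.025 over 19 alternatives, and with the GC and length trend removed it was -0.093 with 26 of 30 below 0. CDKN1A, the p21 inhibitor of cyclin-dependent kinases, had 130.9, 194.5 and 170.8 CPM at lupeol 80, against 256.0, 508.1 and 376.5 CPM at lupeol 50, at -1.20 ± 0.32 (SE; edgeR adjusted p = 0.161). Its groups were separate. The 17 p53 targets as a list had a median of 0.017, which ran from -0.18 to 0.10 over 19 alternatives. Of the 17, 3 were non-overlapping below, CDKN1A among them, and 0 above, against 9.63% and 9.42% of all genes. The list's mean log2 CPM was 4.08, 4.25 and 4.21 at lupeol 80, against 4.29, 4.44 and 4.43 at lupeol 50, without overlap. None of 21 caspase, inhibitor and death receptor genes or 15 BCL2 family genes was called, with 14 and 12 of them below 0 in that order. Of the 21, 5 were non-overlapping below and 2 above, and of the 15, 4 below and 0 above. Over all genes these shares were 9.63% below and 9.42% above.

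VEGFA, an angiogenic growth factor induced in hypoxia, had 55.6, 67.9 and 50.6 CPM at lupeol 80, against 89.7, 110.5 and 91.7 CPM at lupeol 50, a log2 fold change of -0.75 ± 0.16 (SE; edgeR adjusted p = 0.0741). It was not called, and its groups were separate. Azurophil granule genes had a median of 0.27 with 11 of 13 above 0 and 3 non-overlapping above, where 9.42% of all genes are, and ELANE, neutrophil elastase, had 1742, 1482 and 1873 CPM at lupeol 80, against 1336, 1115 and 1059 CPM at lupeol 50. ELANE did not overlap between doses and was not called (edgeR adjusted p = 0.134).

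Cholesterol synthesis genes did not separate the doses. Of 23 tested, 18 stood above 0 with a median of 0.16, but none was called and none was free of overlap, and lupeol 80 replicate 1 stood apart. DHCR7, which makes cholesterol from its immediate precursor, had 24.6, 4.87 and 5.27 CPM at lupeol 80 and 7.46, 4.54 and 4.04 CPM at lupeol 50. INSIG1, a sterol-sensing brake on this pathway, had 174.7, 42.7 and 42.5 CPM at lupeol 80 and 52.0, 42.9 and 44.0 CPM at lupeol 50. In both genes replicate 1 of lupeol 80 was nearest to control libraries 1 and A (DHCR7 32.5 and 30.8 CPM, INSIG1 152.1 and 143.6 CPM), and the other lupeol libraries were far lower. Without it the median of the list was -0.14.

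Lists of basic cell functions had small medians, several of them with most members below 0. Cytosolic ribosomal protein genes had a median log2 fold change of -0.12 with 30 of 36 below 0, 6 non-overlapping below and 1 above, against 9.63% and 9.42% of all genes, and without lupeol 80 replicate 1 the median was 0.025. Nuclear-encoded respiratory chain genes had a median of -0.13 with 28 of 36 below 0 and 4 non-overlapping below. Glycolysis and hypoxia genes had -0.14 with 24 of 28 below 0 and 6 non-overlapping below. Cytosolic heat shock genes had -0.13 with 15 of 16 below 0 and 1 non-overlapping below, where 9.63% of all genes are. The mean log2 CPM of the glycolysis and hypoxia list was 5.75, 5.98 and 5.97 at lupeol 80, against 6.03, 6.12 and 6.10 at lupeol 50, without overlap. Spliceosome genes had a median of 0.057, with 7 of 26 non-overlapping above and 3 below, and lysosome and V-ATPase genes 0.053, with 6 of 30 above and 3 below. HOXA and stemness genes had -0.0070, with 1 of 17 each way. Over all genes these shares were 9.42% above and 9.63% below. With the GC and length trend removed, the spliceosome median was -0.024, with 6 non-overlapping above and 4 below. The lysosome and V-ATPase median was then 0.12, with 5 above and 1 below. None of the members of these lists was called.

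**Figure D4:**
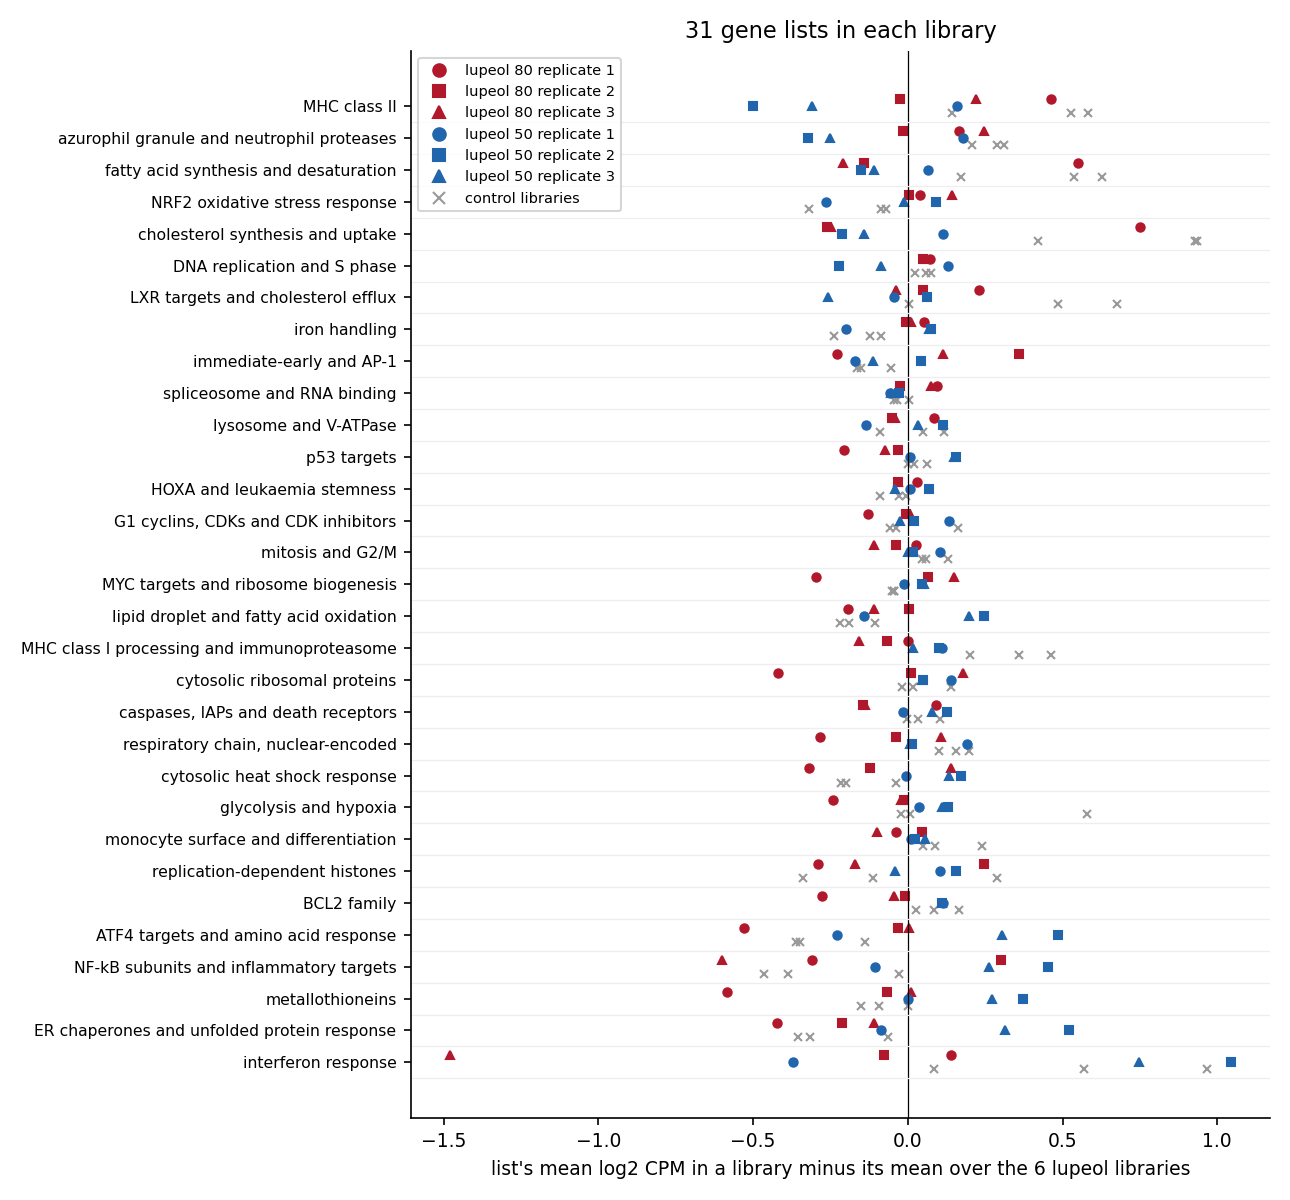
For 31 gene lists, each library's mean log2 CPM over the list minus the mean over the 6 lupeol libraries, with lupeol 80 in red, lupeol 50 in blue and controls as grey crosses. Lupeol 80 replicate 3 stands alone in the interferon list and lupeol 80 replicate 1 in the cholesterol list. All 3 lupeol 80 libraries lie left of the 3 lupeol 50 libraries in the ER chaperone list. The nearest of them there are lupeol 80 replicate 3 and lupeol 50 replicate 1, at a mean log2 CPM of 7.82 and 7.84. The same order holds in the p53 target, BCL2 family, MHC class I and glycolysis lists.

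Genes of low GC content were higher and genes of high GC content lower at lupeol 80. Over 13406 protein-coding genes with a GC value, split into 5 equal groups by GC, the group of lowest GC had a median log2 fold change of 0.12, with 16.1% of genes non-overlapping above and 2.05% below. The group of highest GC had a median of -0.15, with 2.83% above and 16.9% below. Lupeol 80 replicate 1 had the widest range, its median level relative to the mean of all libraries running from 0.27 in the lowest group to -0.34 in the highest on the log2 scale, while lupeol 80 replicate 2 stayed between -0.032 and 0.013. Control libraries 1 and A ran the other way, from -0.13 to 0.15 and from -0.155 to 0.15. With a trend in GC and exon length removed from each library, 5 genes were called, XACT, DUSP1, SOCS3 and TSC22D3 higher and COPB2, a coatomer subunit, lower. The other 6 of the 8 genes missed the threshold at adjusted p from 0.0514 to 0.0677 (edgeR). Their log2 fold changes kept their direction, with NR4A2 at 1.86, MIR23AHG at 1.45, ENSG00000246250 at 1.76 and DSG2 at 0.93. CERCAM stood at -0.60, against -0.76 in the main fit, and SH3BP5L at -0.58, against -0.73. XACT stood at 1.82, against 2.25, and DUSP1 at 1.17, against 1.09. With that trend removed, the ER chaperone list had a median of -0.50 with 22 of 22 below 0, while other lists weakened. Glycolysis and hypoxia genes then had a median of -0.068, with 18 of 28 below 0 and 3 non-overlapping below. The BCL2 family median was -0.067. Interferon genes had 0 non-overlapping members and NRF2 targets 6 above and 1 below, against 9.51% above and 9.31% below over all genes.

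**Figure D5:**
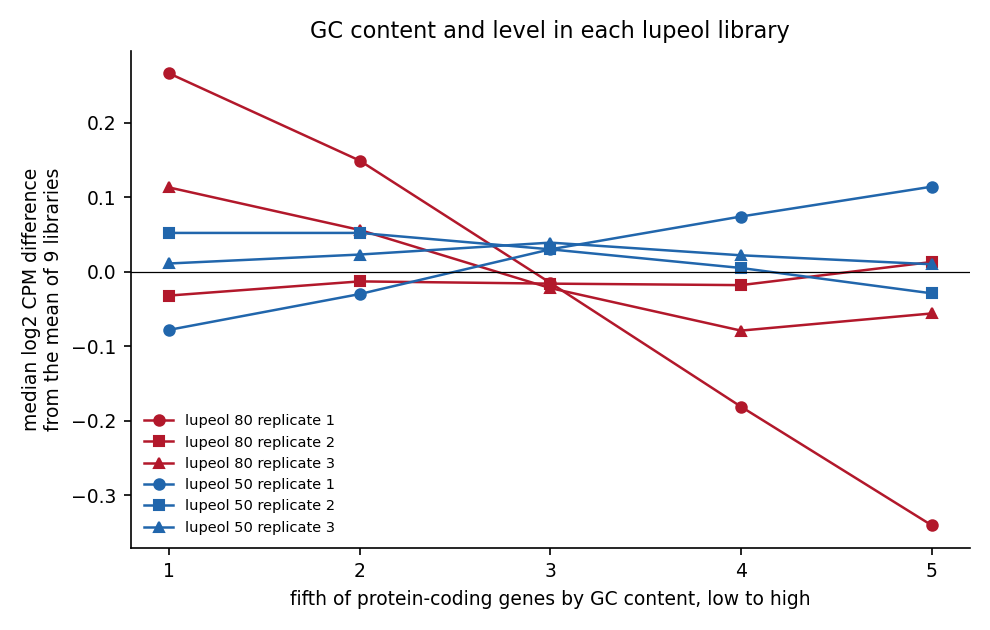
Median log2 CPM difference from the mean of the 9 libraries over protein-coding genes in 5 equal groups by GC content, for each lupeol 80 (red) and lupeol 50 (blue) library. Lupeol 80 replicate 1 runs from 0.27 to -0.34, lupeol 50 replicate 1 runs the other way, from -0.078 to 0.11, and lupeol 80 replicate 3 declines from 0.11 to -0.079 before ending at -0.056.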

How the data were processed

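RNA-seq was measured in 9 THP-1 libraries, 3 at lupeol 80, 3 at lupeol 50 and 3 controls. The values are raw read counts for each gene in a single table, as the authors deposited it. Bowtie 0.12.2 and the mouse build mm8 are named, per the submitters' processing notes, while the table holds human Ensembl genes placed as in GENCODE 29 (GRCh38), so those notes and the table conflict. For the counting tool, strand use and multiply aligned reads, the sources used here give nothing. Control columns 2 and 3 share a heading, and were taken as control libraries named A and B. One lupeol 50 label lacks the micro prefix of its unit. Of 67928 genes, 1 had empty values and was left out.

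edgeR 4.0.16 in R 4.3.3 fitted all 9 libraries with a term per group: filterByExpr (17568 genes), TMM, robust quasi-likelihood F test, contrast lupeol 80 minus lupeol 50, Benjamini-Hochberg adjustment over all genes, called at adjusted p under 0.05. Standard errors were taken as |log2 fold change| over √F. Levels are TMM-scaled CPM computed here. DESeq2 1.42.0 and limma-voom 3.58.1 were alternatives, with other scalings, filters and left-out libraries. The script was tested on simulated data. No label states that libraries of one dose are separate cultures. P-values therefore reflect only the spread among these libraries, which may be technical. With no molecular identifiers named, reads may not be independent molecules.

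Genes were named by a rule: of genes with a symbol, averaging 5 CPM or more over the 6 lupeol libraries, and without overlap of the doses, up to 12 called per direction by size of change, filled to 8 by the smallest p, and per list up to 3 called members or, with none called, 2 of highest mean and 2 of smallest p. ENSG00000246250, ZSWIM4, HSD17B12 and further list members were chosen after their values were seen. The members and 36 lists were chosen with earlier results of these data known. Lists are described by counts and medians, with no test. Promoter and microRNA sequences came from RefSeq (GRCh38.p14), where 27305 genes had a window of 250 bases before the start. NR4A2 had no entry. Some genes are not reported here.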

Additional observations from a re-analysis of the deposited data

How the results depend on the processing

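No paired analysis was possible because the labels number the libraries consecutively and give no replicate number shared between groups. The calls of 6 higher and 2 lower genes were 186 and 254 with DESeq2, 267 and 392 with no expression filter, 4 and 1 among genes averaging 5 CPM or more, 12 and 2 without scaling factors, and within 1.5 times of 6 and 2 with limma-voom, with RLE size factors and with the 6 lupeol libraries alone. Of the 8, limma-voom did not call MIR23AHG and ENSG00000246250, and the 6 libraries alone did not call these 2 nor SH3BP5L and CERCAM, the genes that fell. Leaving out 1 lupeol library gave 1 to 68 higher and 0 to 121 lower. Leaving out control library 1, A or B gave 2 and 0, 2 and 1, and 14 and 8. Without replicate 1 of both doses the calls were 31 and 85. After seeing the data, 2 alternatives were added: with the GC and length trend removed there were 4 and 1, and without lupeol 80 replicate 1 and control B there were 17 and 8. At 5 CPM or more, 1129 and 1082 genes did not overlap above and below, of 10761. The cause of these differences was not tested.

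Some uncalled values changed sign. ATF6 ran from -0.042 to 0.089 when single lupeol libraries were left out, and stood at -0.12 without replicate 1 of both doses, at -0.054 with the GC and length trend removed, and at -0.042 without lupeol 80 replicate 1 and control B. DHCR7 ran from -0.076 to 1.49 and INSIG1 from -0.11 to 1.23 when single lupeol libraries were left out. Without lupeol 80 replicate 1 and control B they stood at -0.078 and -0.12, and INSIG1 was at -0.017 without replicate 1 of both doses. No other gene given a log2 fold change in the text changed sign in an alternative run. Genes of the naming rule that the text does not name were not followed through the alternatives. Of the list medians in the text, HOXA turned sign in 9 of 19 alternatives, p53 targets in 6, lysosome in 4, mitosis and ribosomal proteins in 3 each, cholesterol synthesis in 2, and immediate-early, respiratory chain and spliceosome in 1 each. The ER chaperone, ATF4, interferon, NF-kB and NRF2 medians kept their sign in all 19. Lupeol 80 replicate 1, the deepest library, held 38430299 counts.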

Other observations

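Coat proteins of the early secretory pathway were looked at after COPB2 and SEC24C had been seen among the genes of small p, so that their counts are a description. Of 19 COPI and COPII coat genes tested, 17 stood below 0 and 8 had all lupeol 80 libraries below all lupeol 50 libraries, where 9.63% of all genes do, with a median log2 fold change of -0.26 and no call. SEC24C, a cargo-binding subunit of COPII, had 101.2, 120.5 and 81.2 CPM at lupeol 80, against 139.7, 162.8 and 159.1 CPM at lupeol 50, a log2 fold change of -0.61 ± 0.13 (SE; edgeR adjusted p = 0.0701). COPB2, a subunit of the COPI coatomer, had 134.6, 135.3 and 129.6 CPM at lupeol 80, against 163.4, 207.4 and 203.0 CPM at lupeol 50, at -0.52 ± 0.12 (edgeR adjusted p = 0.0741). Both genes separated the doses in every library.

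DUSP1 and TSC22D3 are known glucocorticoid-inducible genes, and 15 genes of that kind, listed after these 2 had been seen, stood on both sides of 0. Of these 5 stood above 0 and 10 below, with a median of -0.052. ANXA1, annexin A1, was with DUSP1 and TSC22D3 among the 3 non-overlapping above, with 171.6, 196.6 and 222.9 CPM at lupeol 80 and 114.4, 136.4 and 134.2 CPM at lupeol 50, a log2 fold change of 0.62 ± 0.12 (SE; edgeR adjusted p = 0.0604). DDIT4 at -1.33 ± 0.45, SOCS1 at -0.92 ± 0.37 and THBD at -0.56 ± 0.15 were the 3 non-overlapping below, none called, where 9.42% of all genes lie above and 9.63% below. Of 14 FOXO target genes, 7 stood above 0 and 7 below, with 3 non-overlapping above and 2 below. SESN3, a sestrin among them, had 231.9, 157.5 and 169.7 CPM at lupeol 80 and 127.3, 74.0 and 89.4 CPM at lupeol 50, at 0.94 ± 0.19 (edgeR adjusted p = 0.0654). TXNIP, the thioredoxin-interacting protein, had 179.7, 127.6 and 87.3 CPM at lupeol 80 and 214.9, 225 and 204.2 CPM at lupeol 50, at -0.71 ± 0.21 (edgeR adjusted p = 0.156), and CDKN1B stood at -0.18 ± 0.12.

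The share of counts in long non-coding RNAs was 1.27%, 1.18% and 1.14% at lupeol 80 and 0.956%, 1.01% and 1.00% at lupeol 50, without overlap (two-sided exact permutation test over the 6 libraries, p = 0.1, the smallest that 3 against 3 allows). In control it was 1.12%, 1.11% and 0.987%. Of 2608 long non-coding genes tested, 14.3% had all lupeol 80 libraries above all lupeol 50 libraries and 4.1% below, against 8% and 11.3% of 13413 protein-coding genes. Of the 6 genes that rose, 3 were among these 2608 long non-coding genes and 3 among the 13413 protein-coding genes, where 0.0342% of all genes rose. With the GC and length trend removed, XACT was still called, and MIR23AHG (edgeR adjusted p = 0.0677) and ENSG00000246250 (edgeR adjusted p = 0.0514) were not. Depth was highest in lupeol 80 replicate 1, which also had the highest share, and its part in the difference was not tested.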
